A study of Mus musculus and Homo sapiens with 32 samples.

Results

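The genes described here are 10 members of the p53 and cell-cycle-arrest response of the mouse kidney: Cdkn1a, Cdkn2a, Cdkn2b, Mdm2, Ccng1, Phlda3, Bax, Bbc3, Eda2r and Trp53inp1. They were taken by gene name from the 57180 rows of the count table of an obstruction experiment, where all 10 were found, and were followed over its 6 groups of 3 libraries. In that experiment, bulk mRNA of whole kidneys was sequenced from mice of the genotypes Pcmt1 fl/fl and Pcmt1 tKO. Pcmt1 encodes a methyltransferase that repairs damaged aspartyl residues in proteins. Each genotype had a sham group given DMSO, a group with unilateral ureteral obstruction (UUO) given DMSO, and a UUO group given LY2109761. UUO ties off 1 ureter, which injures the kidney and leads to fibrosis. LY2109761 blocks the kinase activity of the type I and type II TGF-β receptors, and the other groups had DMSO alone. The term fl/fl stands for floxed alleles, which the control mice carry. The labels do not spell out tKO, name no Cre driver, and give neither the age of the mice nor whether each library came from a separate animal, so p-values measure the spread between these libraries.

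p53, encoded by Trp53, is a transcription factor that is held low by the ubiquitin ligase Mdm2 and accumulates after DNA damage and other stress. It then switches on genes that stop the cell cycle, such as Cdkn1a (p21), and genes that start cell death at the mitochondrion, such as Bax and Bbc3 (PUMA). Cdkn1a, the p16 Ink4a product of Cdkn2a and Cdkn2b (p15 Ink4b) restrain the kinases that phosphorylate the retinoblastoma protein. The other product of Cdkn2a, p19 Arf, instead binds Mdm2 and so stabilises p53. Lasting expression of these genes is a common marker of senescent cells. In injured kidneys, tubule cells with raised p21 or p16 are a known feature of maladaptive repair.

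The members lie on 7 chromosomes (GRCm38, GENCODE M21). Cdkn1a (ENSMUSG00000023067) is on the plus strand at chr17:29090976-29100727. Bax (ENSMUSG00000003873) is on the minus strand at chr7:45461697-45466898, and Bbc3 (ENSMUSG00000002083) is on the plus strand of the same chromosome at chr7:16308393-16318205. Mdm2 (ENSMUSG00000020184, minus strand) spans chr10:117688875-117710758, and Ccng1 (ENSMUSG00000020326, minus strand) spans chr11:40748552-40755311. Phlda3 (ENSMUSG00000041801, plus strand) spans chr1:135766119-135769136, and Eda2r (ENSMUSG00000034457, minus strand) spans chrX:97333840-97377216. Trp53inp1 (ENSMUSG00000028211, plus strand) lies at chr4:11156431-11174379. Cdkn2a (ENSMUSG00000044303) and Cdkn2b (ENSMUSG00000073802) are neighbours on the minus strand of the same chromosome, at chr4:89274471-89294653 and chr4:89306299-89311039, with 11645 bases between them. The starts of the Ink4a and Arf transcripts of Cdkn2a are 12461 bases apart and share the gene's count, so the counts do not separate p16 from p19.

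Promoter windows from RefSeq (GRCm38.p6, from 250 bases before to 50 bases after a transcript start) were held for 9 of the 10 genes and gave 13 windows. They were searched on both strands for the p53 consensus half-site, a palindromic pattern of 10 bases. A half-site was found in 4 of the 13 windows, belonging to Cdkn1a, Mdm2, Ccng1 and Bax, against 8.36% of all 32851 windows. A pair of half-sites with a spacer of 0 to 13 bases was found only in 1 window of Cdkn1a, and 0.0731% of all windows hold such a pair. That window belongs to the Cdkn1a start at chr17:29090979, from which the distances below are counted. The window of the other Cdkn1a start, at chr17:29093769, holds 0 half-sites. These 4 stretches are shown because they hold a match to the half-site near a start, with half-sites in capitals. Those of Mdm2, Ccng1 and Bax hold 1 half-site each and no pair. Binding of p53 to these matches was not tested. They are written 5′ to 3′ along the strand of the gene.
Cdkn1a, chr17:29090876-29090967, plus strand, 103 to 12 bases before the start: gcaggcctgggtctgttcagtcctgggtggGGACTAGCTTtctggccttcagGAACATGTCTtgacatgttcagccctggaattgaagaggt
Mdm2, chr10:117710905-117710974, minus strand, 216 to 147 bases before the start: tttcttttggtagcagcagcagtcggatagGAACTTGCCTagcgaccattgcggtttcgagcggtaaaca
Ccng1, chr11:40755432-40755501, minus strand, 215 to 146 bases before the start: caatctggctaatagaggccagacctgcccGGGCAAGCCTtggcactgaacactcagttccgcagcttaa
Bax, chr7:45467060-45467129, minus strand, 231 to 162 bases before the start: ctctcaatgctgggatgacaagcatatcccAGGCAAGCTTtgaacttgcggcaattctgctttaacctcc

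No half-site was found in the windows of Phlda3, Bbc3, Eda2r, Cdkn2a or Cdkn2b, which says only that the pattern is not within these bases. The known p53 elements of several targets, Mdm2 among them, lie in introns that the windows do not reach. GC boxes (GGGCGG or its reverse complement CCGCCC, searched together) were found in 11 of the 13 windows, against 35.7% of all windows. These windows belong to 8 of the 9 genes, all but Ccng1. Mdm2, Bax and Cdkn2b, which did not pass the test after obstruction, are among the 8. A stretch is shown for Phlda3 and for Bbc3, because both rose after obstruction, with the GC boxes in capitals.
Phlda3, chr1:135766021-135766067, plus strand, 64 to 18 bases before the start: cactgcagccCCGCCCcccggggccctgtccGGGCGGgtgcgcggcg
Bbc3, chr7:16310251-16310421, plus strand, 180 to 10 bases before 1 of its 3 annotated starts: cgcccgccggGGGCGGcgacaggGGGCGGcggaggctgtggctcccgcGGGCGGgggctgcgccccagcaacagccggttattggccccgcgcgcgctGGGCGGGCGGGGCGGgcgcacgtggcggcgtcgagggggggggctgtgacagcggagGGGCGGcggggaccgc
Of the genes with a half-site in a window, Cdkn1a rose after obstruction, Ccng1 fell, and Mdm2 and Bax did not pass the test, as given below.

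The libraries held 13015669 to 19565376 counts, of which mitochondrially encoded genes took 7.432% to 69.54%. The highest mitochondrial shares were in tKO sham replicate 3 (69.54%) and tKO sham replicate 2 (49.68%), and the obstructed kidneys held 7.432% to 18.8%. Pcmt1 itself was at 22.7 to 28.0 CPM (counts per 1000000 of the TMM-scaled library size) in 8 of the 9 tKO libraries and at 49.3 CPM in tKO sham replicate 1, above every fl/fl library, so the library labelled tKO sham replicate 1 went against its label. The fl/fl libraries held 25.7 to 48.9 CPM of Pcmt1, and the lowest, fl/fl UUO+LY2109761 replicate 3 at 25.7 CPM, lay within the range of the tKO libraries and so also went against its label. Calls of members tested that rest on either library are therefore also given without it. As a check of the tissue, the summed level of 12 proximal tubule markers was 9036 to 12521 CPM in fl/fl sham and 2214 to 3917 CPM in fl/fl UUO, with none of the 12 at 0 in any whole group. Of 8 markers of the loop of Henle and distal tubule, Pvalb was at 0 in all libraries of fl/fl UUO and of tKO UUO+LY2109761.

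Per length, on the authors' FPKM scale (fragments scaled to gene length and to the library total), the members spanned a wide range in fl/fl sham kidneys. Ccng1 was highest at 24.1 FPKM, followed by Bax at 15.3, Mdm2 at 4.82, Phlda3 at 3.17, Cdkn2b at 2.58, Trp53inp1 at 2.44, Cdkn1a at 1.47 and Bbc3 at 0.989, as means of 3 libraries. Eda2r was at 0.0369 FPKM and Cdkn2a at 0. In fl/fl UUO the order was Bax at 25.0 FPKM, Ccng1 at 23.9, Phlda3 at 13.7, Bbc3 at 8.24, Cdkn1a at 6.81, Trp53inp1 at 6.62, Mdm2 at 6.32 and Cdkn2b at 3.31, with Eda2r at 0.439 and Cdkn2a at 0.0765. The means of Phlda3, Bbc3, Cdkn1a and Trp53inp1 were below that of Mdm2 in fl/fl sham and above it in fl/fl UUO, an order that was not tested. FPKM divides by the whole library, mitochondrial reads included, so levels are compared between groups only as TMM-scaled CPM from here on.

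**Figure D1:**
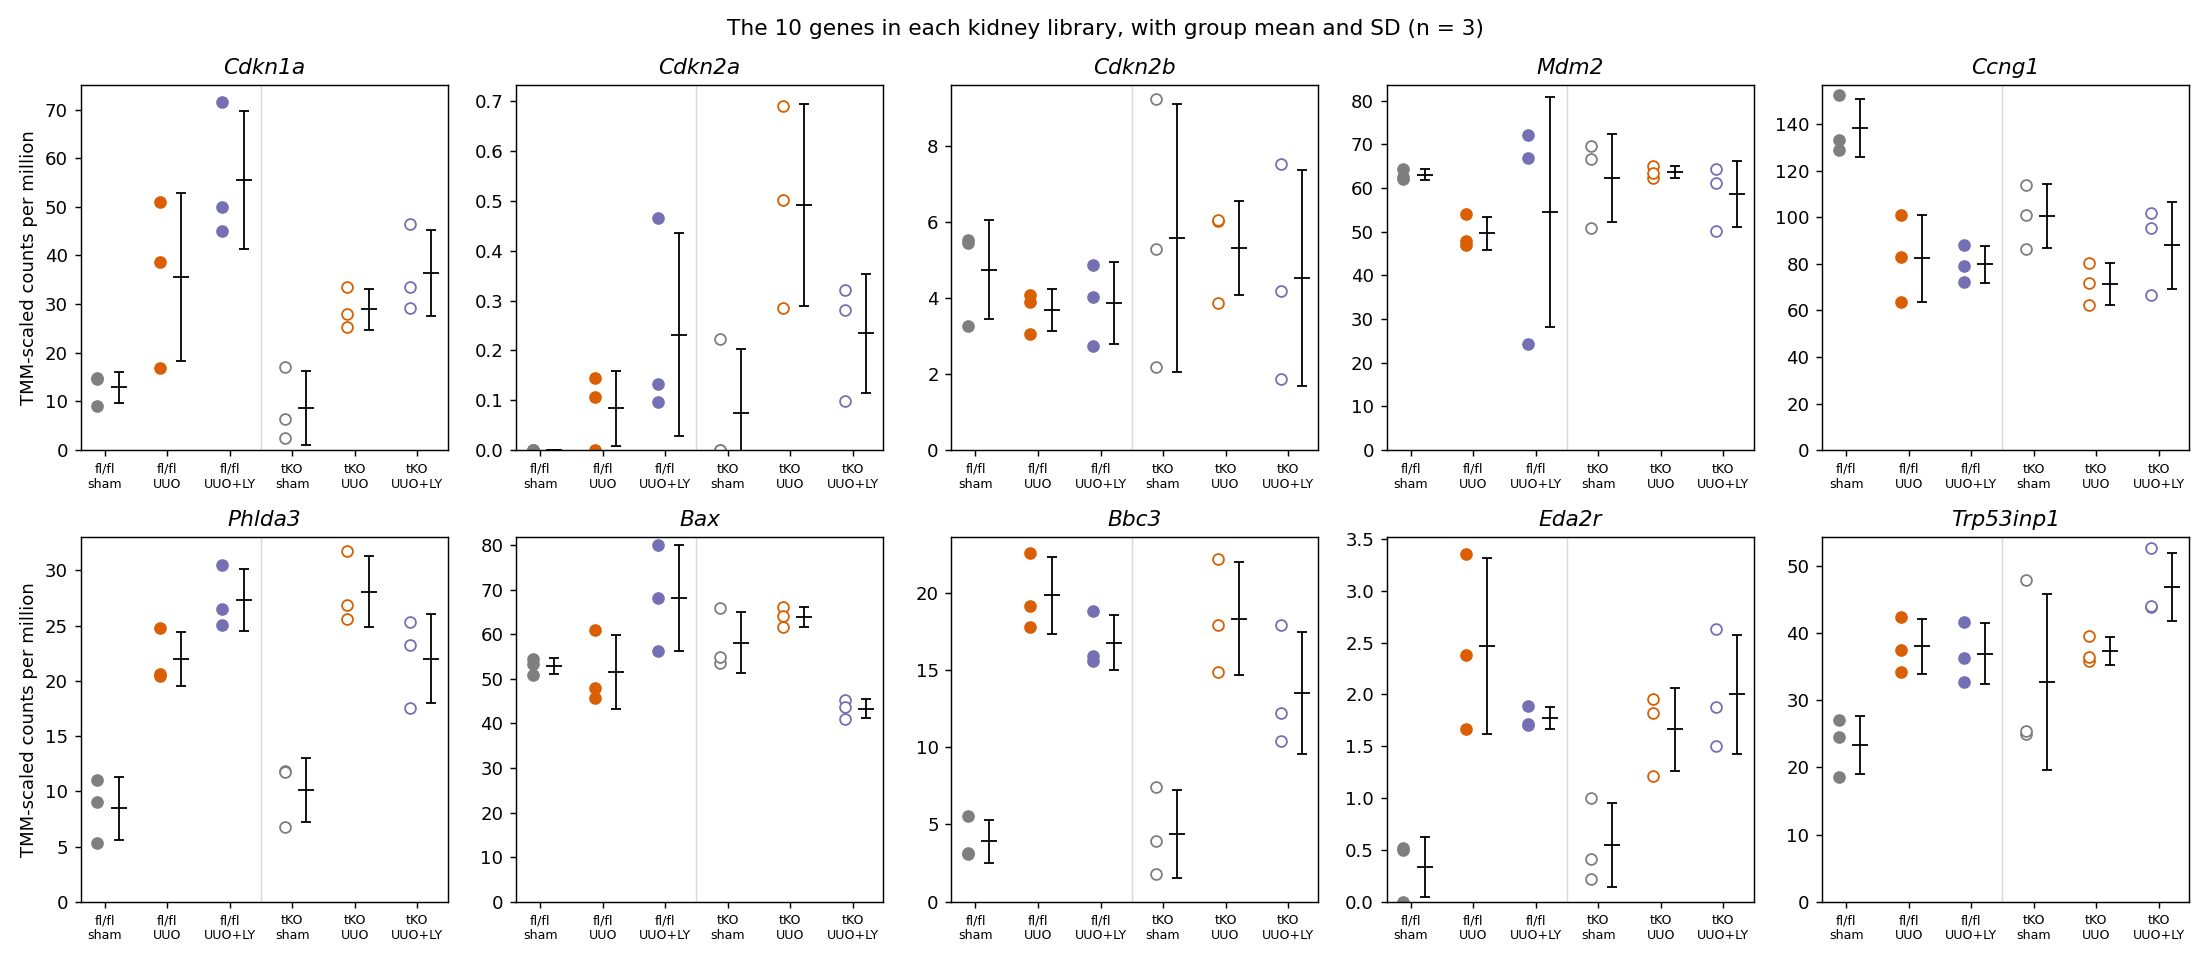
Each panel shows 1 gene; the y axis is TMM-scaled CPM on a linear scale, each point is 1 library (filled for fl/fl, open for tKO), and the bar beside the points is the mean ± SD of 3 libraries, cut at 0. Cdkn1a, Phlda3, Bbc3 and Eda2r were higher in every UUO library than in any sham library of the same genotype, while Bax in tKO UUO+LY2109761 (41.1 to 45.3) lay below Bax in every other group.

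The comparison of UUO with sham kidneys asked how the members respond to obstruction, separately in each genotype. In fl/fl kidneys 5 of the 9 members tested rose (Cdkn1a, Phlda3, Bbc3, Eda2r and Trp53inp1) and 1 fell (Ccng1), by edgeR's quasi-likelihood test with Benjamini-Hochberg adjustment over 19256 genes and a threshold of 0.05. Of all genes tested, 20.9% rose and 18.7% fell. In tKO kidneys 4 of 9 rose (Cdkn1a, Phlda3, Bbc3 and Eda2r) and Ccng1 fell, where 21.6% of all genes rose and 19.4% fell. With column totals in place of TMM scaling, 6 rose and 0 fell in fl/fl and 7 rose and 0 fell in tKO. Of all 19256 genes, 8547 then rose and 906 fell in fl/fl, and 11686 rose and 715 fell in tKO. The median log2 fold change of all genes moved from 0.02 to 0.76 and from 0.02 to 1.06. Cdkn2a had too few counts to be tested.

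Among the inhibitors of cyclin-dependent kinases, Cdkn1a rose in both genotypes. In fl/fl sham its level was 14.7, 9.10 and 14.8 CPM, and in fl/fl UUO it was 16.9, 51.0 and 38.6 CPM. Every obstructed library was above every sham library, but fl/fl UUO replicate 1 lay close to the sham range. The fold was 2.76 (log2 fold change 1.46, SE 0.49, adjusted p = 0.0254, edgeR). The call was lost without fl/fl sham replicate 2, fl/fl UUO replicate 2 or fl/fl UUO replicate 3 (adjusted p up to 0.118). In tKO sham Cdkn1a was at 17.1, 6.33 and 2.39 CPM, and in tKO UUO at 33.6, 25.3 and 27.9 CPM, with no overlap. The log2 fold change in tKO was 1.69 (SE 0.50, adjusted p = 0.0130), and 2.67 without the library labelled tKO sham replicate 1 (adjusted p = 0.00061). Without tKO sham replicate 2 the call was lost (adjusted p = 0.0569).

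Cdkn2b, the neighbour of Cdkn2a and a textbook target of TGF-β signalling, did not pass the test in either genotype. It was at 5.54, 3.25 and 5.47 CPM in fl/fl sham and at 4.08, 3.06 and 3.91 CPM in fl/fl UUO, which overlap (log2 fold change -0.37, SE 0.47, adjusted p = 0.572). In tKO the sham libraries alone ran from 2.19 to 9.24 CPM and held the whole UUO range of 3.89 to 6.06 CPM.

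Cdkn2a was near the limit of detection throughout. It had 0 counts in each fl/fl sham library, where the floor of 3 counts over the group is 0.0521 CPM of the column totals (exact Poisson 95% upper limit 0.0641). It had 0, 3 and 2 counts in fl/fl UUO, and 9, 2 and 2 in fl/fl UUO+LY2109761. In tKO it had 3, 0 and 0 counts in sham, 7, 16 and 11 in UUO, and 6, 2 and 6 in UUO+LY2109761. Summed over a group and divided by column totals, it stood at 0.622 CPM in tKO UUO (exact Poisson 95% interval 0.431 to 0.869, counting error only). In fl/fl UUO it stood at 0.0998 (0.0324 to 0.233) and in tKO sham at 0.0665 (0.0137 to 0.194). Each tKO UUO library was above each tKO sham and each fl/fl UUO library. When low genes were not filtered out, the difference between the genotypes in UUO did not pass the test (adjusted p = 0.119), nor did UUO against sham in tKO (adjusted p = 0.141). The 3 counts in tKO sham all came from the library labelled replicate 1.

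Of the members that act in cell death, Bbc3 rose in both genotypes. Bbc3 encodes PUMA, a BH3-only protein that frees Bax and Bak1 to open the mitochondrial outer membrane. Its level was 3.13, 3.11 and 5.53 CPM in fl/fl sham and 19.1, 17.8 and 22.6 CPM in fl/fl UUO. In tKO it was 7.45, 3.95 and 1.79 CPM in sham and 22.1, 17.9 and 14.9 CPM in UUO. All obstructed libraries of both genotypes were above all sham libraries. The fold was 5.03 in fl/fl (log2 fold change 2.33, SE 0.37, adjusted p = 0.000121) and 3.97 in tKO (log2 fold change 1.99, SE 0.37, adjusted p = 0.000467), and both calls held under all 13 alternatives tried for each.

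Bax, the pore-forming protein that PUMA acts upon, did not pass the test after obstruction. It was at 54.4, 53.4 and 50.8 CPM in fl/fl sham and at 47.9, 45.8 and 60.9 CPM in fl/fl UUO (log2 fold change -0.04, SE 0.14, adjusted p = 0.861). In tKO it was at 53.6, 65.9 and 54.8 CPM in sham and at 61.6, 66.1 and 64.2 CPM in UUO (log2 fold change 0.14, SE 0.14, adjusted p = 0.463). Both pairs of groups overlap. With column totals Bax passed as higher in both genotypes (log2 fold change 0.71 and 1.19, adjusted p = 0.0322 and 0.000949), in each case close to the shift of all genes.

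Eda2r encodes the receptor for the A2 form of ectodysplasin, a member of the TNF receptor family. It was the least abundant member tested, with 15 counts over the fl/fl sham group and 158 over the fl/fl UUO group. Its level was 0.497, 0 and 0.514 CPM in fl/fl sham and 3.35, 2.38 and 1.66 CPM in fl/fl UUO. The log2 fold change was 2.82 (SE 0.58, adjusted p = 0.00115), the largest of the members in fl/fl. In tKO it was at 0.224, 0.415 and 0.997 CPM in sham and at 1.95, 1.21 and 1.82 CPM in UUO (log2 fold change 1.83, SE 0.62, adjusted p = 0.0269). All obstructed libraries were above all sham libraries in both genotypes. The tKO call was lost without tKO sham replicate 1 or 2 or tKO UUO replicate 1 or 3 (adjusted p up to 0.135).

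Phlda3 encodes a small pleckstrin-homology protein that binds membrane phosphoinositides and thereby restrains Akt. It rose in both genotypes, from 11.01, 5.33 and 9.002 CPM in fl/fl sham to 20.5, 20.7 and 24.8 CPM in fl/fl UUO. In tKO it rose from 11.8, 11.7 and 6.78 CPM to 26.9, 31.7 and 25.6 CPM. The groups did not overlap. The fold was 2.60 in fl/fl (log2 fold change 1.38, SE 0.25, adjusted p = 0.000386) and 2.74 in tKO (log2 fold change 1.45, SE 0.25, adjusted p = 0.000255), and each call held under all 13 alternatives tried.

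Trp53inp1 encodes a nuclear and autophagy-linked protein that promotes p53 activity. It was at 18.6, 24.5 and 27.0 CPM in fl/fl sham and at 34.2, 37.4 and 42.4 CPM in fl/fl UUO, without overlap (log2 fold change 0.70, SE 0.22, adjusted p = 0.0170). The call was lost when fl/fl UUO replicate 3 or fl/fl sham replicate 1 was left out (adjusted p up to 0.0798). In tKO it was at 25.0, 25.4 and 47.8 CPM in sham and at 39.6, 35.8 and 36.4 CPM in UUO (log2 fold change 0.20, SE 0.22, adjusted p = 0.497). The high sham value was that of tKO sham replicate 3, the library with the highest mitochondrial share, and without it Trp53inp1 passed the test in tKO too (log2 fold change 0.57, adjusted p = 0.0155), as it did with column totals.

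Neither Mdm2 nor Ccng1 passed as higher in UUO against sham on the TMM scale, in either genotype. Mdm2, the ligase that p53 itself induces, was at 62.5, 64.4 and 62.1 CPM in fl/fl sham and at 54.0, 47.9 and 46.8 CPM in fl/fl UUO. All obstructed libraries were below all sham libraries, yet the test was not passed (log2 fold change -0.35, SE 0.27, adjusted p = 0.338). In tKO Mdm2 was at 66.6, 69.7 and 50.8 CPM in sham and at 65.0, 62.4 and 63.5 CPM in UUO. Ccng1, a p53 target that directs the phosphatase PP2A to Mdm2, fell in fl/fl from 129, 133 and 152 CPM to 83.0, 63.5 and 101 CPM (log2 fold change -0.75, SE 0.18, adjusted p = 0.0044). In tKO it fell from 101, 86.6 and 114 CPM to 80.2, 71.9 and 62.4 CPM (log2 fold change -0.49, SE 0.18, adjusted p = 0.0442). The tKO call ended under 8 of 13 alternatives (adjusted p up to 0.153), among them leaving out the library labelled tKO sham replicate 1 (adjusted p = 0.0850), tKO sham replicate 3, and either replicate 2 or 3 of tKO UUO. Both falls are relative to the TMM scale: with column totals the log2 fold change of Ccng1 was -0.01 in fl/fl and 0.60 in tKO, and that of Mdm2 was 0.39 and 1.03 (adjusted p = 0.381 and 0.0220).

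Trp53 itself rose in both genotypes. It went from 36.2, 44.5 and 39.5 CPM to 77.2, 78.1 and 84.3 CPM in fl/fl (log2 fold change 0.996, SE 0.12, adjusted p = 1.02e-05). In tKO it went from 45.9, 47.1 and 50.4 CPM to 70.5, 68.7 and 73.3 CPM (log2 fold change 0.57, adjusted p = 0.00126). None of the libraries overlapped.

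**Figure D2:**
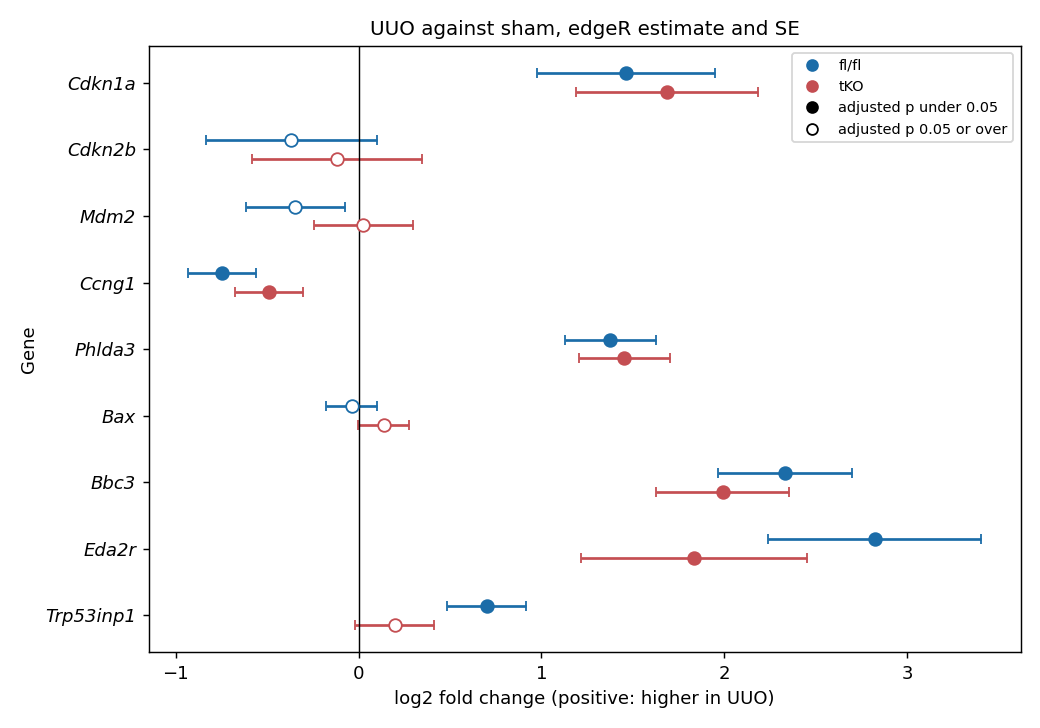
Log2 fold change of UUO against sham (x axis; positive values are higher in UUO) with its SE for the 9 members tested, in fl/fl (blue) and tKO (red); filled points passed the adjusted p threshold of 0.05. Bbc3, Eda2r, Cdkn1a and Phlda3 lie between 1.38 and 2.82 in both genotypes, and Ccng1 lies at -0.75 and -0.49.

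The test of the difference between the genotypes in their response to UUO (the interaction of genotype and UUO) called 0 of the 9 members, with 0 at an unadjusted p under 0.05 and 0 by DESeq2. Of all 19256 genes, edgeR called 0.0415%, and DESeq2 called 217 higher and 195 lower. The estimates ran from -0.99 for Eda2r (SE 0.88) to 0.37 for Mdm2 (SE 0.38). The call of Trp53inp1 in fl/fl but not in tKO was therefore not shown to differ (log2 difference -0.50, SE 0.31, adjusted p = 0.533).

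In whole tissue, fewer cells of a type and less RNA per cell cannot be told apart, and markers of many cell types moved with obstruction. In fl/fl, 9 of 12 proximal tubule markers fell and 8 of 9 macrophage and monocyte markers rose, and their summed level went from 145 to 174 CPM in sham to 608 to 706 CPM in UUO. Of the fibroblast and myofibroblast markers, 5 of 8 rose, with a summed level of 195 to 288 CPM in sham and 1222 to 1464 CPM in UUO. In tKO 11 of 12 proximal tubule markers fell and 7 of 9 macrophage and monocyte markers rose. No marker of these 3 lists was at 0 in a whole group. The part of these shifts in the members' changes was not tested.

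The members were then set beside other genes of the pathway in UUO against sham. Among 29 other p53 targets, 10 rose and 5 fell in fl/fl (median log2 fold change 0.10, against 0.02 for all genes). In tKO 5 rose and 6 fell (median -0.06, against 0.02). Sfn, the 14-3-3 sigma protein that holds cells before mitosis, rose by 2.84 in fl/fl and 1.90 in tKO (log2 fold change, adjusted p = 2.78e-06 and 7.76e-05). Psrc1, a spindle protein, rose by 2.49 and 1.17 (adjusted p = 0.00011 and 0.0148), and Tnfrsf10b, the mouse TRAIL death receptor, rose by 1.43 and 1.65 (adjusted p = 0.000129 and 4.63e-05). Btg2, an antiproliferative cofactor, rose by 1.87 in fl/fl (adjusted p = 0.000405) and stood at 0.27 in tKO (adjusted p = 0.541). Its interaction of genotype and UUO did not pass (adjusted p = 0.161). Fdxr, a mitochondrial reductase, fell by 1.27 in fl/fl and by 1.68 in tKO (adjusted p = 0.00039 and 3.58e-05). With column totals, 2 of the 5 falls in fl/fl and 5 of the 6 in tKO changed sign, and that of Fdxr did not. The split became 15 higher and 0 lower in fl/fl and 20 and 0 in tKO. By that scaling 8547 of all 19256 genes rose and 906 fell in fl/fl, and 11686 rose and 715 fell in tKO. The same background applies to the counts with column totals given for the lists below.

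Of 13 tested genes that encode p53 and its regulators, 3 rose in fl/fl and 0 fell, and 2 rose and 2 fell in tKO (with column totals 6 and 0, and 9 and 0). Chek2, a kinase that phosphorylates p53 after DNA breaks, rose by 0.93 in fl/fl (adjusted p = 0.00896) and stood at 0.19 in tKO (adjusted p = 0.576). Its interaction of genotype and UUO did not pass (adjusted p = 0.419). Chek1, the kinase of the replication checkpoint, rose by 0.70 and 1.10 (adjusted p = 0.0327 and 0.00235). Mdm4, the partner of Mdm2, stood at -0.28 and -0.41 (adjusted p = 0.578 and 0.401).

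All 12 proliferation genes rose in both genotypes, with a median log2 fold change of 1.99 in fl/fl and 1.29 in tKO. Mki67 rose by 2.62 and 1.26 (adjusted p = 8.18e-05 and 0.0131), Top2a by 2.73 and 1.73 (adjusted p = 5.23e-05 and 0.00174) and Pcna, itself a p53 target, by 1.09 and 1.03 (adjusted p = 9.54e-05 and 0.000167). Of 11 cyclins and cyclin-dependent kinases, 7 rose and 1 fell in fl/fl, and 6 rose and 2 fell in tKO (with column totals 8 and 0, and 9 and 0). Cdk1, the mitotic kinase, rose by 2.65 and 1.63 (adjusted p = 1.09e-05 and 0.000563) and Cdk4, which p16 and p15 inhibit, by 0.90 and 0.76 (adjusted p = 4.72e-05 and 0.000212). Transcripts of the kinase inhibitor Cdkn1a and of genes of dividing cells thus rose in the same kidneys.

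Among 5 other inhibitors of cyclin-dependent kinases, 2 rose in fl/fl and 1 in tKO, and 0 fell (with column totals 3 and 0, and 5 and 0). Cdkn3, a phosphatase of Cdk2 that is expressed in dividing cells, rose by 2.67 in fl/fl (adjusted p = 0.00134), and Cdkn2c (p18) rose by 0.89 (adjusted p = 0.0147). In tKO Cdkn1b (p27) rose by 0.60 (adjusted p = 0.0248). The interaction of genotype and UUO did not pass for Cdkn3, Cdkn2c or Cdkn1b (adjusted p = 0.233, 0.867 and 0.453). In the RB and E2F list of 6 genes, E2f1 rose by 1.91 and 1.36 (adjusted p = 5.06e-05 and 0.000865), and Rbl2, the p130 pocket protein of resting cells, fell by 0.43 and by 0.62 (adjusted p = 0.00587 and 0.000392). With column totals the sign of Rbl2 changed in both genotypes, and 4 of the 6 rose and 0 fell in each.

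The BCL2 family had 11 tested genes beside Bax and Bbc3, of which 3 rose in fl/fl, and 5 rose and 2 fell in tKO (with column totals 8 and 0, and 9 and 0). Bak1, the other pore-forming protein, rose by 1.51 and 1.30 (adjusted p = 2.78e-05 and 0.000103). Mcl1, which restrains Bak1, rose by 1.01 and 1.28 (adjusted p = 7.1e-06 and 9.67e-07), and Bmf, a BH3-only protein, by 1.21 and 1.69 (adjusted p = 0.00123 and 8.66e-05). Bak1 therefore passed the test where Bax did not, a contrast that was not itself tested.

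Of 15 genes of senescence-associated secretion and nuclear change, 10 rose and 1 fell in fl/fl (median log2 fold change 2.38), and 12 rose and 1 fell in tKO (median 1.47). Ccl2, which draws monocytes, rose by 5.86 and 5.64 (adjusted p = 8.92e-08 and 1.69e-07), and Il1b, an inflammatory cytokine, by 3.35 and 2.63 (adjusted p = 4.53e-06 and 1.97e-05). Glb1, which encodes the lysosomal galactosidase used to stain senescent cells, fell by 0.54 and by 0.40 (adjusted p = 0.00395 and 0.023), and with column totals its sign changed in both and no gene of the list fell. Lmnb1 (lamin B1), whose loss is a usual mark of senescence, was among the genes that rose in both genotypes. Leukocytes and fibroblasts also make several of these secreted factors.

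Among 7 Polycomb genes, whose complexes silence the Ink4 and Arf locus, 2 rose and 1 fell in fl/fl, and 2 rose and 0 fell in tKO (with column totals 4 and 0, and 7 and 0). Ezh2 rose by 1.11 in fl/fl (adjusted p = 0.000726) and stood at 0.40 in tKO (adjusted p = 0.151). Its interaction of genotype and UUO did not pass (adjusted p = 0.342). Bmi1 rose by 0.46 and 0.52 (adjusted p = 0.025 and 0.014). Of 6 relatives and ligands of the members, 2 rose and 1 fell in each genotype (with column totals 4 and 0 in each). Phlda2 fell by 1.35 in both genotypes (adjusted p = 6.64e-05 and 7.64e-05), opposite to Phlda3. Ccng2 rose by 0.39 and 0.85 (adjusted p = 0.0412 and 0.000256), opposite to Ccng1. Eda, the gene of the ectodysplasin ligands, rose by 0.81 and 0.90 (adjusted p = 0.0308 and 0.0183), as did Eda2r.

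**Figure D3:**
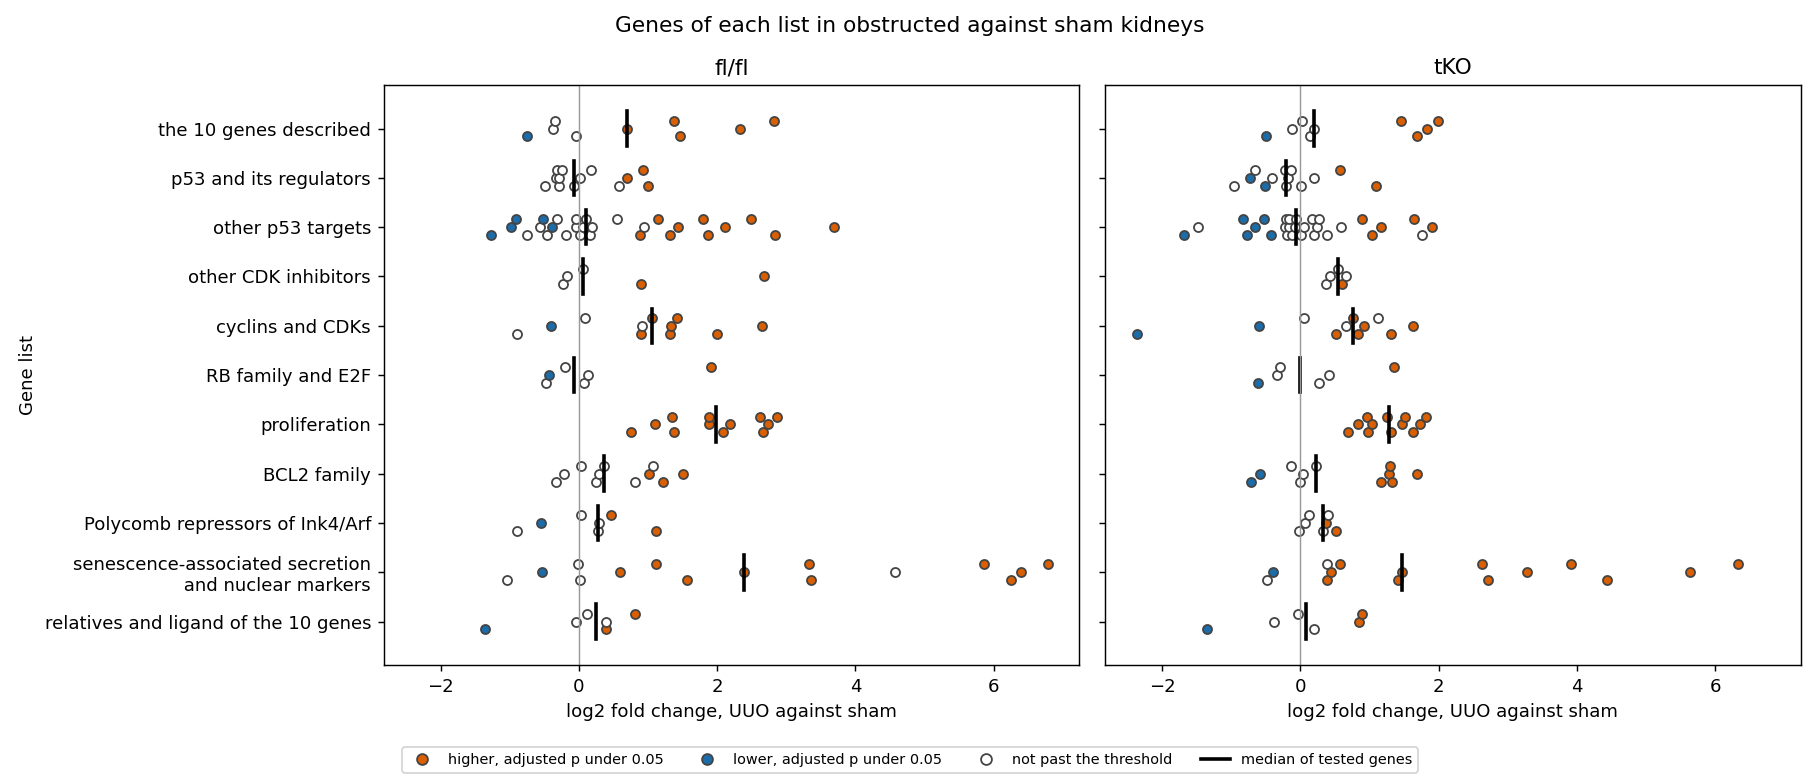
Log2 fold change of UUO against sham (x axis) for each tested gene of the 10 genes described and of 10 other lists (y axis), in fl/fl (left) and tKO (right); orange and blue points passed the adjusted p threshold of 0.05 as higher and lower, open points did not, and the black bar is the median of the list. All 12 proliferation genes lie to the right of 0 in both panels, while other p53 targets lie on both sides.

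The comparison of tKO with fl/fl kidneys asked whether the members differ with the genotype. In sham kidneys 0 of 9 members passed the test by edgeR, where 12.3% of all genes did. At an unadjusted p under 0.05 there were 2 members (Ccng1 and Trp53inp1). DESeq2 called 0 members, and of all 19256 genes it called 1665 higher and 1666 lower in tKO. Cdkn1a was lower by 0.52 on average in log2 terms (SE 0.49, adjusted p = 0.521). Without the library labelled tKO sham replicate 1 it passed as lower in tKO (log2 fold change -1.49, adjusted p = 0.0360), with 6.33 and 2.39 CPM in the remaining libraries against 9.10 to 14.8 CPM in fl/fl. Those libraries are the ones with 49.68% and 69.54% mitochondrial counts, and the part of that share in the difference was not tested. In the same fit without the library labelled tKO sham replicate 1, 1877 of all 19742 genes were called higher in tKO and 2358 lower.

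In UUO kidneys 0 of 9 members passed between the genotypes, where 17.9% of all genes did. At an unadjusted p under 0.05 there was 1 member, Bax, and DESeq2 called 0. Of all 19256 genes, DESeq2 called 2145 higher and 2251 lower in tKO. Bax was at 61.6, 66.1 and 64.2 CPM in tKO UUO and at 47.9, 45.8 and 60.9 CPM in fl/fl UUO, without overlap (log2 fold change 0.31, SE 0.14, adjusted p = 0.131). Mdm2 (62.4 to 65.0 against 46.8 to 54.0 CPM) and Phlda3 (25.6 to 31.7 against 20.5 to 24.8 CPM) were also higher in every tKO UUO library than in any fl/fl UUO library, and neither passed (adjusted p = 0.379 and 0.321). The share of all genes that separate in this way was not counted, here or in the other comparisons. Such separation is therefore not shown to be particular to the members.

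LY2109761 was given to ask how blocking TGF-β receptors changes obstructed kidneys. Against sham, the fl/fl kidneys with LY2109761 had the same 6 members called as without it, and Bax as well. In them 6 of 9 rose and Ccng1 fell, where 22.4% of all genes rose and 19.6% fell. Cdkn1a rose by 2.11, Phlda3 by 1.69, Bbc3 by 2.09, Eda2r by 2.34, Trp53inp1 by 0.66 and Bax by 0.36 (adjusted p = 0.00289, 6.29e-05, 0.000272, 0.00465, 0.0228 and 0.0473). The call of Bax ended under 7 of 13 alternatives (adjusted p up to 0.223), among them leaving out any of the fl/fl sham libraries or fl/fl UUO+LY2109761 replicate 1 or 3. In tKO 4 rose and Bax fell, where 20.8% rose and 19% fell. Cdkn1a rose by 2.02, Phlda3 by 1.10, Bbc3 by 1.55 and Eda2r by 2.10 (adjusted p = 0.00477, 0.00239, 0.00319 and 0.0135), and Bax fell by 0.42 (adjusted p = 0.0249). The call of Eda2r was lost without the library labelled tKO sham replicate 1 (adjusted p = 0.0768) or without tKO sham replicate 2. That of Bax ended under 6 of 13 alternatives (adjusted p up to 0.122), among them leaving out tKO sham replicate 2 or tKO UUO+LY2109761 replicate 2 or 3. The sham libraries are the same as in the comparisons with UUO above. With column totals 6 rose and 0 fell in each genotype, and the log2 fold change of Bax in tKO was 0.57. Of all 19256 genes, 8017 then rose and 991 fell in fl/fl, and 10932 rose and 631 fell in tKO.

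Between LY2109761 and DMSO in obstructed kidneys, no member passed the test in either genotype. In fl/fl edgeR called 0 of 9, with 1 at an unadjusted p under 0.05 (Bax), where it called 5.15% of all genes. DESeq2 called 0 members there, and of all 19256 genes it called 990 higher and 1082 lower. Without the library labelled fl/fl UUO+LY2109761 replicate 3, edgeR called 0 of all 19708 genes higher and 2 lower in fl/fl. In a fit of only the groups compared it called 20 of 17850 genes higher and 34 lower. In tKO edgeR called 0 of 9, with 1 at an unadjusted p under 0.05 (Bax), where it called 0.171% of all genes. DESeq2 called 1 member there (Bax, lower), and of all 19256 genes it called 424 higher and 474 lower. Cdkn1a was at 50.04, 45.0 and 71.5 CPM with LY2109761 in fl/fl, overlapping the DMSO range of 16.9 to 51.0 CPM (log2 fold change 0.65, SE 0.47, adjusted p = 0.451). In tKO it was at 33.6, 46.4 and 29.2 CPM with LY2109761 (log2 fold change 0.33, SE 0.47, adjusted p = 0.763). Cdkn2b was at 2.74, 4.89 and 4.02 CPM in fl/fl and at 4.18, 7.55 and 1.88 CPM in tKO, overlapping the DMSO libraries in both. Mdm2 in fl/fl had 1 low library with LY2109761, replicate 3, at 24.2 CPM against 66.9 and 72.2 CPM. Phlda3 with LY2109761 lay above every DMSO library in fl/fl (25.1 to 30.5 against 20.5 to 24.8 CPM). In tKO it lay below every DMSO library (17.5 to 25.3 against 25.6 to 31.7 CPM). Neither passed (adjusted p = 0.466 and 0.482), nor did the difference between these responses (-0.67, SE 0.34, adjusted p = 0.202). Trp53inp1 lay above every DMSO library in tKO and did not pass (adjusted p = 0.459).

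The response of Bax to LY2109761 differed between the genotypes, though it passed the test in neither genotype alone. In fl/fl UUO it was at 47.9, 45.8 and 60.9 CPM with DMSO and at 68.1, 79.9 and 56.2 CPM with LY2109761 (log2 fold change 0.40, SE 0.14, adjusted p = 0.102). In tKO UUO it was at 61.6, 66.1 and 64.2 CPM with DMSO and at 45.3, 43.6 and 41.1 CPM with LY2109761 (log2 fold change -0.56, SE 0.14, adjusted p = 0.0910). The ranges overlap in fl/fl, and in tKO all libraries with LY2109761 were below all with DMSO. The difference between these responses, the interaction of genotype and LY2109761, was -0.96 (SE 0.20, adjusted p = 0.00702). Bax was the only member called of 9, where 13.8% of all genes were called, so the count is not shown to be particular to the members. Between the genotypes under LY2109761, Bax was also the only member called, lower in tKO (log2 fold change -0.65, SE 0.14, adjusted p = 0.0262), where 2.98% of all genes were called. The call between the genotypes was lost without fl/fl UUO+LY2109761 replicate 1 or 3 or tKO UUO+LY2109761 replicate 2 or 3, while the interaction was called without each single library. The library labelled fl/fl UUO+LY2109761 replicate 3, whose Pcmt1 level was in the tKO range, had the highest Bax of the 18 libraries at 79.9 CPM. Without it the difference between the genotypes was -0.52 (adjusted p = 0.125) and the interaction -0.83 (adjusted p = 0.0232). Of all 19708 genes, 9 were then called higher and 14 lower between the genotypes, and 714 and 626 in the interaction. Both calls of Bax were lost with column totals (0 members). Of all 19256 genes, 11 were then called higher and 12 lower between the genotypes, and 164 and 125 in the interaction.

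Cell type markers moved with the same interaction. Of the fibroblast and myofibroblast markers, 5 of 8 were called lower in it (median log2 difference -1.17), and of the proximal tubule markers 4 of 12 were called higher (median 1.0). The summed fibroblast and myofibroblast level was 1222 to 1464 CPM in fl/fl UUO and 1762 to 2085 CPM with LY2109761, and it was 2351 to 3919 CPM in tKO UUO and 1575 to 2325 CPM with LY2109761. The summed proximal tubule level was 2214 to 3917 CPM in fl/fl UUO and 1905 to 2387 CPM with LY2109761, and it was 1177 to 1560 CPM in tKO UUO and 1683 to 2531 CPM with LY2109761. No marker of either list was at 0 in a group, and the part of these shifts in the result for Bax was not tested. GENCODE places Gm45808 over the end of Bax on the same strand, and it held 0 to 5 counts over a group, against 1630 to 4453 for Bax.

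**Figure D4:**
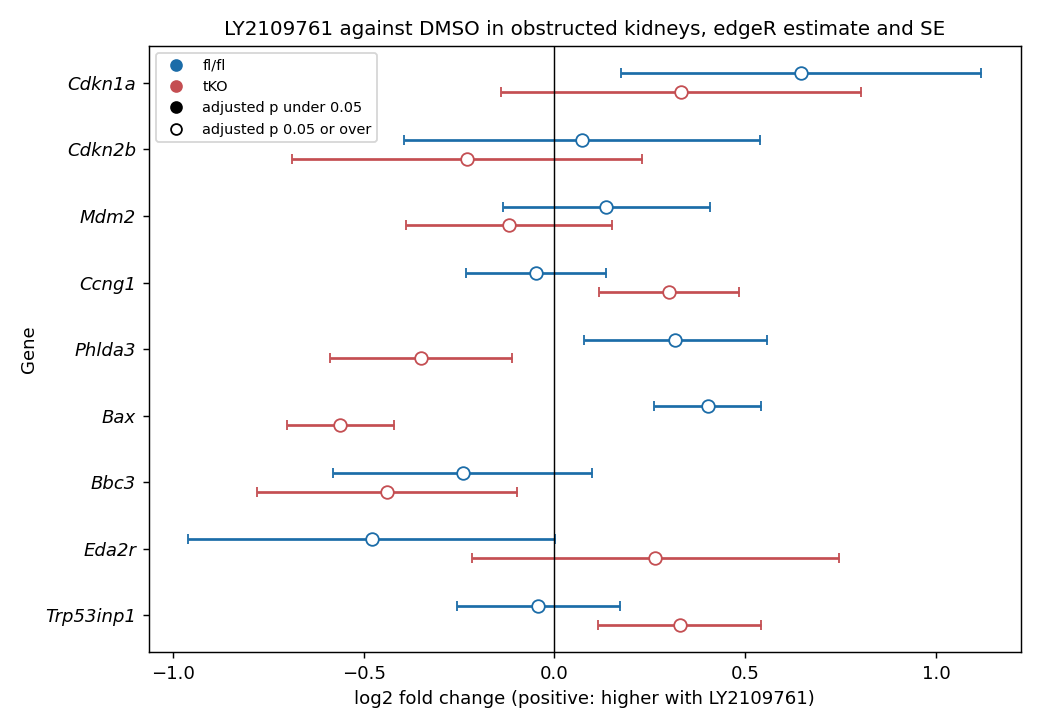
Log2 fold change of LY2109761 against DMSO in obstructed kidneys (x axis; positive values are higher with LY2109761) with its SE for the 9 members tested, in fl/fl (blue) and tKO (red); open points did not pass the adjusted p threshold of 0.05. Bax lies at 0.40 in fl/fl and -0.56 in tKO.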

How the data were processed

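Whole-kidney mRNA libraries of the obstruction experiment were analysed: 18 libraries in 6 groups of 3, grouped by the labels. Per the submitters' processing notes, fastp, HISAT2 and StringTie were used, with no versions. How reads were counted, with which strand setting and annotation, is not given in the sources used here. Deposited counts are whole numbers per gene and not normalized; the deposited FPKM values were computed by the authors and match count, length and column total to a relative error of 1.3e-05. The tables of the other experiments hold none of the members and were not used.

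Counts were tested with edgeR 4.0.16 (R 4.3.3, limma 3.58.1): TMM scaling, filterByExpr by group (19256 genes kept), 1 quasi-likelihood fit of all 18 libraries without covariates (12 residual degrees of freedom, biological coefficient of variation 0.283) and Benjamini-Hochberg adjustment over all genes tested, with a threshold of 0.05. The SE is the size of the log2 fold change divided by the square root of F. Unqualified adjusted p-values in the text are from this fit. CPM are counts scaled to 1000000 of the TMM-scaled library size. Totals of 13015669 to 19565376 counts limit precision for Cdkn2a and Eda2r.

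The table's own gene positions equal GENCODE M21 (GRCm38) for 2.78% of 51933 matched gene IDs, although the notes name GRCm38, so positions are from GENCODE M21 by gene ID and those of the table are not printed. The overlapping antisense model at Cdkn1a could share its reads, since the strand setting is unknown.

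The members and gene lists were chosen with earlier results of these data known. Genes named beside the members were Pcmt1, Trp53 and up to 4 per list with the smallest p in UUO against sham in fl/fl, tKO against fl/fl in UUO or the interaction of genotype and UUO; Lmnb1 and Gm45808 were named after their values were seen. The values of 1 gene that this rule names are not reported here. The alternatives were RLE factors, column totals, TMM without mitochondrial genes, no filter, DESeq2 1.42.0, only the groups compared, a replicate block, and each library left out. Replicate numbers did not pair the libraries.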

Additional observations from a re-analysis of the deposited data

Results flagged for a closer look

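These genes responded to LY2109761 differently in fl/fl and tKO obstructed kidneys, by edgeR's test of the interaction (log2 difference of the tKO response minus the fl/fl response). For Bax the difference was -0.96 (SE 0.20, adjusted p = 0.00702), with responses of 0.40 in fl/fl and -0.56 in tKO. Ring1, a Polycomb ligase, differed by -1.49 (adjusted p = 0.00201), with 0.72 in fl/fl and -0.77 in tKO. Cdkn1c (p57) differed by -1.18 (adjusted p = 0.0350), Rps27l, a ribosomal protein gene induced by p53, by -0.97 (adjusted p = 0.0229), Hmgb2 by -0.95 (adjusted p = 0.0156) and Rb1 by -0.73 (adjusted p = 0.0295). In the other direction, Eed differed by 0.70 (adjusted p = 0.0407), Rbl2 by 0.66 (adjusted p = 0.0139) and Sesn2 by 0.58 (adjusted p = 0.0302). Of all genes tested, 13.8% passed this test.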

How the results depend on the processing

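The 25 member values called were refitted 331 times under the alternatives: 284 kept their direction and side of the threshold, 45 kept the direction but missed it, and 2 changed sign. Both were with column totals: Ccng1 in UUO against sham in tKO at 0.60, and Bax in UUO+LY2109761 against sham in tKO at 0.57. The cause was not tested. The number of members called between the genotypes under LY2109761 went from 1 to 0 with column totals, without the filter and with only the groups compared, and the interaction of genotype and LY2109761 from 1 to 0 with column totals. Between LY2109761 and DMSO in tKO it went from 0 to 1 with DESeq2, which called 424 of all 19256 genes higher and 474 lower. For UUO against sham in tKO it went from 5 to 3 with only the groups compared, which leaves fewer libraries to estimate the spread. Leaving out 1 library gave 4 to 6 calls for UUO and 5 to 7 for UUO+LY2109761 against sham in fl/fl, and 3 to 5 and 3 to 6 in tKO, the low counts coming without tKO sham replicate 2 or, for UUO, tKO UUO replicate 3. It gave 0 to 1 between the genotypes in sham and under LY2109761, and 0 to 1 between LY2109761 and DMSO in fl/fl, where Bax passed as higher without fl/fl UUO replicate 3 or fl/fl UUO+LY2109761 replicate 4. The replicate numbers did not pair the libraries: 4 of 40 same-numbered pairs correlated over 0.1 (range -0.152 to 0.197). With the replicate block, 4 members were called in UUO against sham in tKO and 6 in fl/fl. Counts of Cdkn2a and Eda2r limit what can be seen of them.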
